A study of Mus musculus with 14 samples.

Results

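RUNX1 and GATA2 binding sites were compared in wild-type (WT) G1ER erythroblasts, from 1 peak list per factor: 28952 RUNX1 peaks and 68199 GATA2 peaks, out of 14 samples and 6 peak lists in the series. G1ER is a mouse erythroblast line without endogenous GATA1 that carries a GATA1 fusion activated by estradiol. The series title concerns CHD7, a chromatin remodeller, and its interaction with RUNX1 in blood cell differentiation, and the series also holds a Chd7 knockout (KO, labelled Chd7-/-) of the same line. All cells of both genotypes were grown in medium with erythropoietin and stem cell factor. The labels name estradiol treatment, for 48 hours, for a differentiation assay and do not say whether the chromatin came from treated cells. The RUNX1 library used the Abcam antibody ab23980 and the GATA2 library the Santa Cruz antibody sc9008. Lists for S2P, the elongating form of RNA polymerase II (phosphorylated at serine 2), in WT cells, and for both factors in KO cells, were used beside them. Chd7 itself had no RUNX1, GATA2 or S2P peak in WT, so these lists do not check the knockout label.

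RUNX1 is a Runt-domain transcription factor that binds DNA with its partner CBFB, is needed for the first blood stem cells to form in the embryo, and acts later in megakaryocytes, lymphocytes and myeloid cells. GATA2 is a zinc-finger factor that reads GATA sequences, maintains blood stem and progenitor cells and is needed by mast cells. In erythroid maturation GATA1 replaces GATA2 at many sites, and both GATA factors are known to work in complexes with TAL1 (SCL), LMO2 and LDB1, to which RUNX1 has also been linked in progenitor cells and megakaryocytes. RUNX factors recognise a core usually written TGTGGT or TGCGGT, and GATA factors one usually written AGATAA or TGATAA.

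The 3 kinds of promoter that the comparison turns on are shown by their sequence, from RefSeq on GRCm38.p6, 250 bases before to 50 after a gene start, 5′ to 3′ on the strand of the gene. Capitals mark the RUNX letters TGTGGT, or TGCGGT in its other form, and the GATA letters AGATAA, or TGATAA in its other form. A match on the opposite strand stands in capitals as its reverse complement. Positions are counted from 1 at the 5′ end of each sequence. The first set had a RUNX1 summit and no GATA2 peak. Oga (the enzyme that removes O-GlcNAc from proteins, chr19:45783504-45783803, minus strand) and Rnf44 (a RING finger protein, chr13:54693911-54694210, minus strand) held the strongest such peaks, with 279 and 282 fragments at the summit. Rab28 (a small GTPase, chr5:41708130-41708429, minus strand) was added after its values were seen, as a promoter with TGTGGT close to the summit. 
Oga: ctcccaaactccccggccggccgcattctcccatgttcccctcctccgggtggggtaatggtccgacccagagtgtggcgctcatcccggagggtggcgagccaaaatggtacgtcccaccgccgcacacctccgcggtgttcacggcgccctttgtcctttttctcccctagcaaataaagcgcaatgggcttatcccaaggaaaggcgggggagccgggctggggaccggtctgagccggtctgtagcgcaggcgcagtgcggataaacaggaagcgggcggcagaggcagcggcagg
Rnf44: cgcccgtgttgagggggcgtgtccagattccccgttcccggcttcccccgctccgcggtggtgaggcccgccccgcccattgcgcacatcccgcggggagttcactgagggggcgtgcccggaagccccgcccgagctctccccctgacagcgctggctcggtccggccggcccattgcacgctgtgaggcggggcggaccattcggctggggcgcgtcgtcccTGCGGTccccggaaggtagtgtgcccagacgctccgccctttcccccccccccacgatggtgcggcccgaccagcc
Rab28: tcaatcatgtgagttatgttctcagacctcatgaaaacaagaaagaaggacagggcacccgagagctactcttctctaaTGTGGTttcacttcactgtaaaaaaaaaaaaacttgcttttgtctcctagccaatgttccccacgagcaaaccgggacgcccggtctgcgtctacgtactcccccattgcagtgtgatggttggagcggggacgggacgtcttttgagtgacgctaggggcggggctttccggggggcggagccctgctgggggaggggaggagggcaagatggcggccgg
The RUNX1 summit lay at base 140 in Oga, 252 in Rnf44 and 89 in Rab28. Oga held none of the 4 letter strings, Rnf44 held a TGCGGT with its middle 24 bp from the summit, and Rab28 held a TGTGGT 6 bp from it.

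The second set had a RUNX1 summit in a peak that a GATA2 peak overlapped. Por (cytochrome P450 oxidoreductase, chr5:135688895-135689194, plus strand) and Abhd2 (a hydrolase, chr7:79273016-79273315, plus strand) held the strongest. Tfr2 (transferrin receptor 2, which takes part in iron sensing, chr5:137570725-137571024, plus strand) was added after its values were seen, as a promoter where both summits lay together.
Por: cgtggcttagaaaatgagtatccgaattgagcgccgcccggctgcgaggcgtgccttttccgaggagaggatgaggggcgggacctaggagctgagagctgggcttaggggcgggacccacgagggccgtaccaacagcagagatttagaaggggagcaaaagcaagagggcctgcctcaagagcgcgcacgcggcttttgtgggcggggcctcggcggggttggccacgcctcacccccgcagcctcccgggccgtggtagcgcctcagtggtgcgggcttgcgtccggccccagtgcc
Abhd2: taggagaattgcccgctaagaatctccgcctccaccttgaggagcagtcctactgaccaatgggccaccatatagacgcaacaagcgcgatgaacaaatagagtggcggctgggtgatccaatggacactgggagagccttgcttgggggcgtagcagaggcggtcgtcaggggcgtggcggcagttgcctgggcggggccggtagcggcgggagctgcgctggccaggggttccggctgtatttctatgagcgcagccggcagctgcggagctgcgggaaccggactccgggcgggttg
Tfr2: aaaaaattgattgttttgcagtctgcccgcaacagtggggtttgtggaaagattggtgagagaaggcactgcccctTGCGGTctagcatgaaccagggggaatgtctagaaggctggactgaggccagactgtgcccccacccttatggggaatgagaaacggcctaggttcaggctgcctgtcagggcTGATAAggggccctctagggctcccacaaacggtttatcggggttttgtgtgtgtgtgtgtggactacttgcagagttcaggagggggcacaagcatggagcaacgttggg
In Por and Abhd2 the letter strings were absent, and the GATA2 summit lay 355 and 144 bp from the RUNX1 summit, with 89 and 50 GATA2 fragments beside 272 and 245 RUNX1 fragments. In Tfr2 the summits lay 1 bp apart, near base 169, with 235 RUNX1 and 205 GATA2 fragments, and a TGATAA had its middle 23 bp from the RUNX1 summit.

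The third set had a GATA2 summit and no RUNX1 peak. Cstad (chr2:30594794-30595093, plus strand) and Ms4a2 (the beta chain of the high-affinity IgE receptor of mast cells, chr19:11623670-11623969, minus strand) held the strongest, with 184 and 121 fragments.
Cstad: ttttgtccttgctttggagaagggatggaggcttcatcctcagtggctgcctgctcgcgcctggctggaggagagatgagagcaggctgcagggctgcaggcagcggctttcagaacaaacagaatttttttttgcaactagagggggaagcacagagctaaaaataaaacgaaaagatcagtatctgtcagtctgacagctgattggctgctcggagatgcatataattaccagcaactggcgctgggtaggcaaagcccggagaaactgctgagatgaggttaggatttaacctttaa
Ms4a2: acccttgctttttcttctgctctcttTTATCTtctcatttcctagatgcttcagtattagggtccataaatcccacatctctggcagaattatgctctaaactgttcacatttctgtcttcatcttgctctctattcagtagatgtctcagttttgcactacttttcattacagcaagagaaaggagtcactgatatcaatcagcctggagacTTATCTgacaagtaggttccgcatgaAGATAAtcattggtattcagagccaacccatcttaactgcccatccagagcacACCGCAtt
The GATA2 summit lay at base 158 in Cstad, which held none of the 4 strings, and at base 231 in Ms4a2, which held AGATAA 3 times, on both strands, 2 of them with their middles 14 and 11 bp from the summit.

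Each factor had 1 library, so no difference between the factors has a replicate check and none was tested. Intervals are exact 95% intervals (Clopper-Pearson for shares, Poisson for fragments) and cover counting error only. Strength is given as the number of sequenced fragments piled up at the summit, solved from the fold enrichment and p of each peak, which gave a whole number for 100% of the peaks of both lists. The median summit rested on 38 fragments for RUNX1 and 23 for GATA2, over a median local background of 5.68 fragments for RUNX1 and 2.76 for GATA2. The highest number in either list was 286, a ceiling of the calling that hides differences among the strongest sites. Fragment numbers obtained with different antibodies are not on a common scale. The labels name 1 WT input outside the S2P experiment, and at 61.9% of 8431 close summit pairs the ratio of the 2 factors' backgrounds lay within 5% of that of their lowest backgrounds, as 1 shared input would give, so the backgrounds may not be independent.

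RUNX1 shared more of its sites with GATA2 than GATA2 did with RUNX1. A GATA2 peak overlapped 15605 of 28952 RUNX1 peaks by at least 1 bp, or 53.9% (53.3 to 54.5), and a RUNX1 peak overlapped 15333 of 68199 GATA2 peaks, or 22.5% (22.2 to 22.8). In a culture of many cells, a site held by both factors in the same cells and a site held by each in different cells cannot be told apart. The GATA2 sites that RUNX1 shared were the strong ones: a median of 86 fragments, against 19 at GATA2 sites without RUNX1. RUNX1 sites had medians of 38 fragments with GATA2 and 39 without it, over a local background of 4.97 fragments with GATA2 and 6.40 without it, so that the median fold enrichment was 6.83 with GATA2 and 5.27 without it.

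Across 10 equal classes of strength by −log10 q, the caller's measure of significance, the overlap of RUNX1 peaks with GATA2 ran between 63.0% (61.2 to 64.7) in the strongest class and 42.2% (40.4 to 44.0) in the weakest. For GATA2 the overlap with RUNX1 was 91.7% (91.0 to 92.3) in the strongest class, 54.7% in the second, 26.5% in the third and 3.40% (2.98 to 3.86) in the weakest. Only 568 of the 6820 strongest GATA2 peaks lacked a RUNX1 peak, and their median was 115 fragments, against 175 in the rest of that class. When the GATA2 list was kept to its 28952 strongest peaks, as many as the RUNX1 list holds, the overlap was 46.4% of the RUNX1 peaks and 45.3% of the GATA2 peaks, so the gap between the factors' shares depended on the length of the lists.

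**Figure D1:**
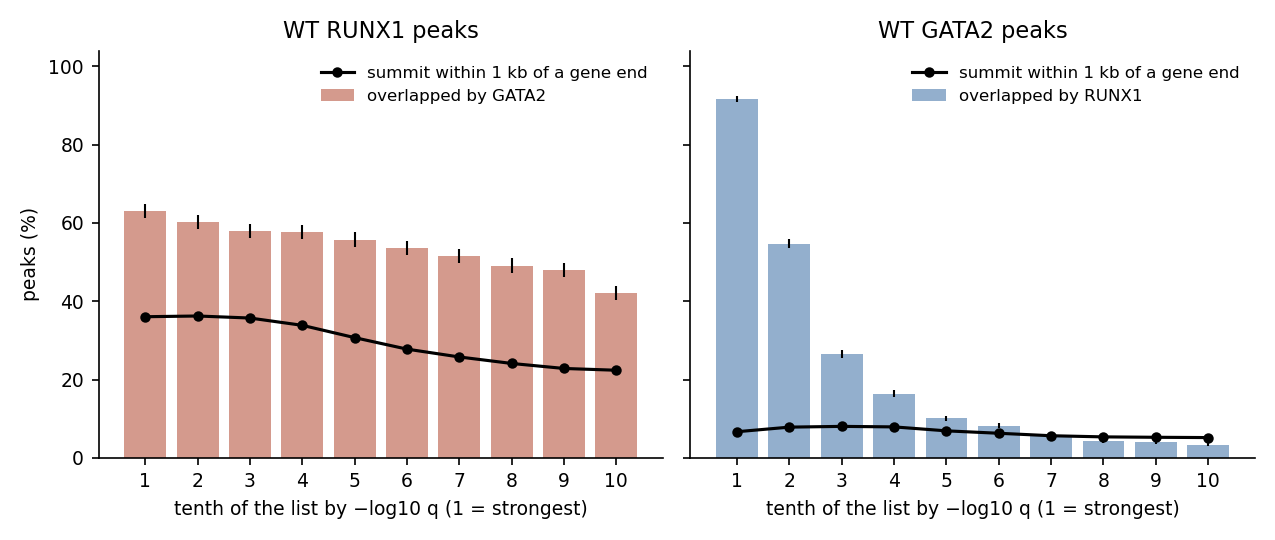
Percentage of WT RUNX1 peaks overlapped by GATA2 (left) and of WT GATA2 peaks overlapped by RUNX1 (right) in 10 equal classes of peak strength, strongest at left, with exact 95% intervals as bars and the percentage of summits within 1 kb of a gene end as black points. The RUNX1 bars lie between 63.0% and 42.2%, and the GATA2 bars between 91.7% and 3.40%.

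RUNX1 sat at gene ends far more often than GATA2. The summit lay within 1 kb of either end of a protein-coding gene for 8553 RUNX1 peaks, 29.5% (29.0 to 30.1), and for 4436 GATA2 peaks, 6.50% (6.32 to 6.69). RUNX1 sites with and without GATA2 also differed from each other: 53.0% (52.2 to 53.9) of the RUNX1 peaks without GATA2 lay at gene ends, against 9.46% (9.004 to 9.93) of those with GATA2. GATA2 peaks lay there in 9.54% of cases with RUNX1 and in 5.62% without it. In the strongest RUNX1 class the gene-end share was 80.5% without GATA2 and 9.92% with it.

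The RUNX1 list therefore divided into 14129 peaks with GATA2 away from gene ends (48.8% of the list), 7077 peaks without GATA2 at gene ends (24.4%), 6270 without GATA2 away from gene ends (21.7%) and 1476 with GATA2 at gene ends (5.10%). The largest class of the GATA2 list, 49893 peaks or 73.2%, lay away from gene ends without RUNX1. The median was 51 fragments at RUNX1 gene-end sites without GATA2 and 50 at those with GATA2, where the median fold was 5.68 without GATA2 and 6.69 with it. The weakest of the 4 RUNX1 classes was the one away from gene ends without GATA2, with 29 fragments. Local background differed as well, with a median of 7.82 fragments at RUNX1 gene-end sites without GATA2 and 4.97 at RUNX1 sites away from gene ends without GATA2; its part in these shares was not tested. Some of the sites counted as away from gene ends lay near other annotated starts: 9.36% of the RUNX1 sites without GATA2 away from gene ends, and 0.142% of the GATA2 sites without RUNX1, lay within 250 bp of an annotated start.

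Most RUNX1 gene-end sites were at the gene start. Of the gene-end RUNX1 peaks without GATA2, 79.8% lay at the start and 8.39% at the far end, whereas of the gene-end GATA2 peaks without RUNX1, 52.2% lay at the start and 32.6% at the far end. Among 6392 RUNX1 peaks without GATA2 within 1 kb of a start, the median summit was at −48 bp (quartiles −104 and 15), just upstream of the start, and 71.2% fell between 250 bp upstream and 50 bp downstream. The 1814 GATA2 peaks without RUNX1 near a start showed no such centre, with a median at 34.5 bp, quartiles at −597 and 658 bp, and 10.6% in the same window. Sites with both factors lay between these, with 49.3% of 1091 RUNX1 summits and 34.0% of 1079 GATA2 summits in that window.

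**Figure D2:**
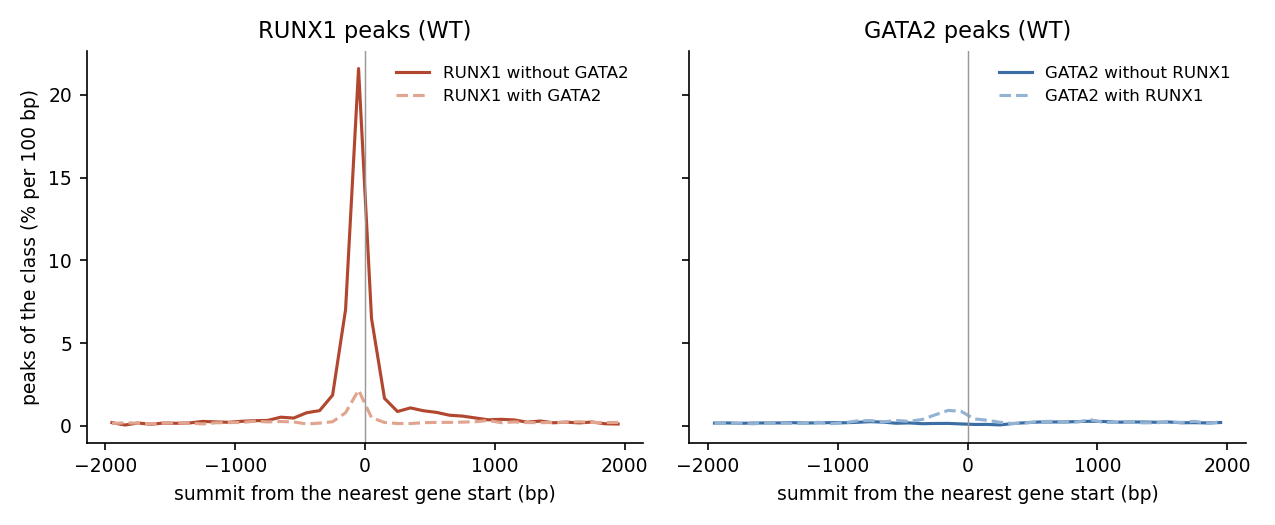
Percentage of the peaks of each class per 100 bp of distance between the summit and the nearest gene start, for RUNX1 (left) and GATA2 (right), with peaks without the other factor as solid lines and with it as dashed lines. RUNX1 without GATA2 has its highest point just upstream of the start, at 21.6% per 100 bp, and GATA2 without RUNX1 stays at or below 0.270%.

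Where the peaks overlapped, their summits nearly coincided. Among 14772 pairs in which 1 RUNX1 peak overlapped 1 GATA2 peak and no other, the summits lay a median of 21 bp apart (quartiles 9 and 43), 57.1% (56.3 to 57.9) within 25 bp and 90.4% within 100 bp. Only 596 pairs were more than 200 bp apart. The spacing was 38 bp over 1402 pairs at gene ends, of which 202 lay over 200 bp apart, and 20 bp over 13370 pairs elsewhere. Pairs with a GATA2 peak of the strongest class had a median of 15 bp, and pairs with one of the weakest class 45 bp. In narrow pairs, both at most 300 bp wide, it was 22 bp.

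**Figure D3:**
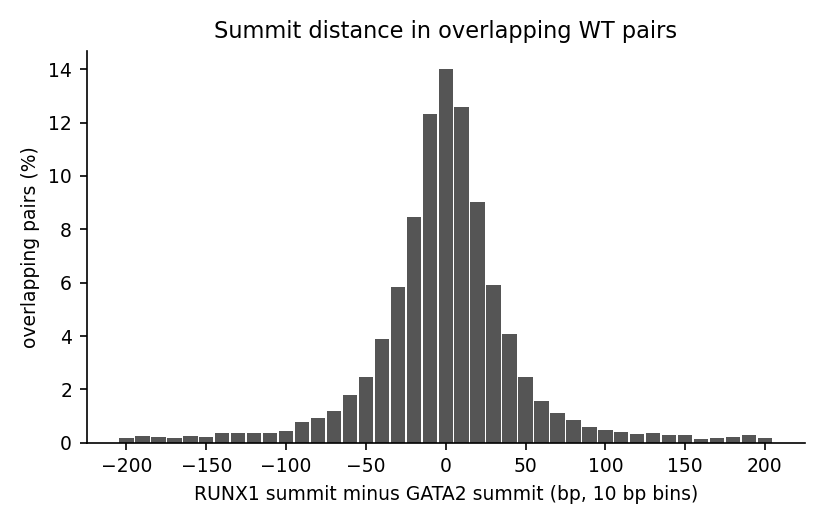
Distribution of the RUNX1 summit position minus the GATA2 summit position over overlapping WT pairs, in bins of 10 bp, as a percentage of 14772 pairs. The central bin holds 14.0% of the pairs and the bins on either side 12.3% and 12.6%.

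At these paired sites GATA2 had more fragments than RUNX1, with medians of 37 for RUNX1 and 85 for GATA2, a median log2 ratio of RUNX1 over GATA2 of −1.06. GATA2 had the higher number in 84.7% of all pairs and in 66.0% of those at gene ends, where the median log2 ratio was −0.55. Strength at one factor went with strength at the other (Spearman's rho 0.632 over 14772 pairs, a description across sites that share the local chromatin and perhaps the input). RUNX1 sites without GATA2 still lay nearer to a GATA2 summit than GATA2 sites without RUNX1 lay to a RUNX1 summit: the nearest summit of the other factor was a median of 2.94 kb away for 13347 RUNX1 sites and 10.4 kb away for 52866 GATA2 sites. Of these, 21.3% of the RUNX1 sites and 9.95% of the GATA2 sites had one within 1 kb. The part of the lists' different lengths in this was not tested.

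RUNX1 peaks were slightly wider than GATA2 peaks over the whole lists, with medians of 257 bp (quartiles 191 and 356) and 243 bp (181 and 313), but the order depended on strength. At 20 to 29 fragments RUNX1 peaks were narrower, 196 against 230 bp. At 50 to 79 fragments the medians were 318 and 313 bp, at 80 to 119 fragments 381 and 355 bp, and at 120 fragments or more 459 and 462 bp. Equal fragment numbers do not mean equal enrichment here, since median local background over the lists was 5.68 fragments for RUNX1 and 2.76 for GATA2. The part of background in these widths was not tested. The 28952 strongest GATA2 peaks had a median of 314 bp, above the 257 bp of all RUNX1 peaks, which turns the order of the medians. The widest class at 120 fragments or more was RUNX1 at gene ends without GATA2, with a median of 507 bp, against 441 bp for RUNX1 with GATA2, 465 bp for GATA2 with RUNX1 and 390 bp for GATA2 without RUNX1. Peaks of at least 500 bp numbered 2620 for RUNX1 (9.05%) and 4528 for GATA2 (6.64%). They lay at gene ends in 53.1% of cases for RUNX1 and 7.13% for GATA2, and overlapped the other factor in 44.1% for RUNX1 and 73.9% for GATA2.

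**Figure D4:**
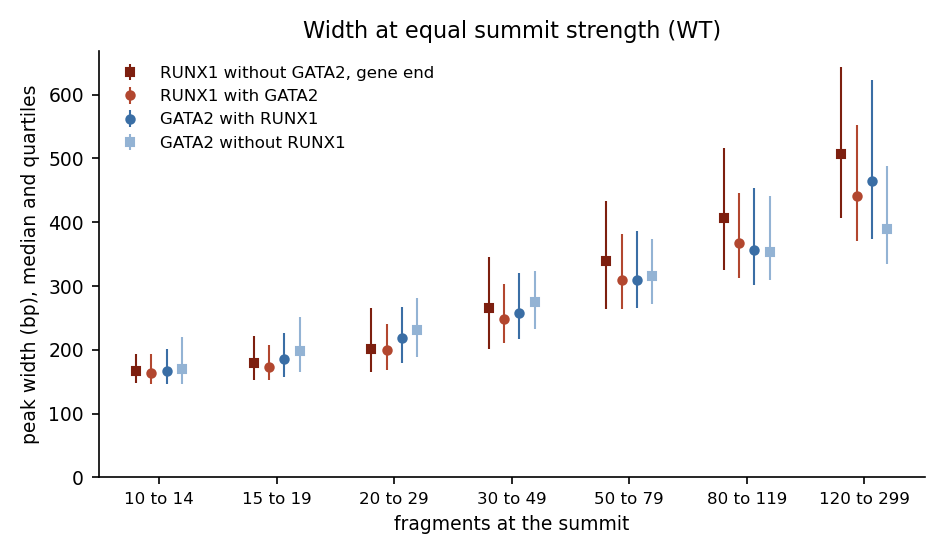
Median peak width in bp with quartiles as bars, by the number of fragments at the summit, for RUNX1 without GATA2 at gene ends, RUNX1 with GATA2, GATA2 with RUNX1 and GATA2 without RUNX1. At 120 to 299 fragments the medians are 507, 441, 465 and 390 bp.

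The strongest sites by −log10 q show the classes one by one. The 6 strongest RUNX1 peaks overlapped by GATA2, taking 1 per named gene, lay at Banp, Rere, Lclat1, Por, Vamp8 and Gpkow. At 4 of them both factors were strong: a site inside Banp (chr8:121955712-121956363) had 264 RUNX1 and 272 GATA2 fragments with summits 11 bp apart, and a site inside Rere, a transcriptional corepressor (chr4:150461431-150462192), had 260 and 263 fragments, 12 bp apart. Lclat1, a cardiolipin-remodelling acyltransferase, had 249 RUNX1 and 285 GATA2 fragments, and Vamp8, a SNARE protein of vesicle fusion, had 245 and 272. Por and Gpkow were of another kind, since the overlapping GATA2 peak was weaker and its summit 355 and 176 bp away.

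The 6 strongest RUNX1 peaks without GATA2 lay at Cwc25 (a splicing factor), Mettl7a1, Oga, Rnf44, Akirin1 and Atg12 (an autophagy conjugation protein), with 231 to 282 fragments, and 5 of the 6 were at a gene end, Mettl7a1 being the exception. The 6 strongest GATA2 peaks without RUNX1 lay at Bcas3, Spint1, Cstad, Retsat, Mbnl1 and Smap2, with 184 to 259 fragments. Of these only the Cstad peak was at a gene end, and the Bcas3 peak (chr11:85529959-85530338) lay inside the gene, 177011 bp from its start.

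At the level of genes, a factor counted as present where a summit lay in a protein-coding gene or within 5 kb of either end, so that neighbouring genes can share a peak. Of 21887 genes, 9347 had both factors (42.7%), 1610 had RUNX1 alone (7.36%), 3032 had GATA2 alone (13.9%) and 7898 had neither. RUNX1 was thus present at 50.1% of genes and GATA2 at 56.6%. With the GATA2 list kept to its 28952 strongest peaks, 3611 genes had RUNX1 alone and 1013 GATA2 alone, which turned the order of these classes. Genes with RUNX1 alone were short, with a median of 9.26 kb, close to the 7.88 kb of genes with neither factor, whereas genes with both and with GATA2 alone had medians of 26.1 and 26.8 kb. A RUNX1 summit lay within 1 kb of an end at 36.8% of genes and a GATA2 summit at 18.5%. At the start, among 17492 genes whose strand was known, RUNX1 was found at 36.1% and GATA2 at 13.4%.

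Presence of both factors at a gene did not always mean 1 site. At least 1 site with both factors was found at 25.9% of all genes, and at 5658 of the 9347 genes with both, or 60.5% (59.5 to 61.5). The strongest RUNX1 peak overlapped the strongest GATA2 peak at 2826 of those genes, 30.2%, and where they did not overlap they were a median of 6.90 kb apart. Of the 3689 genes with both factors and no shared site, 80.1% had their strongest RUNX1 peak at a gene end. A RUNX1 summit of any strength lay within 1 kb of an end at 72.7% of all genes with both. Genes without a shared site hold only RUNX1 peaks without GATA2, of which 53.0% lay at gene ends, so the choice of genes raises this share.

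Elongating polymerase, which the choice of sites did not use, was found at genes with RUNX1 far more often than at genes with GATA2 alone. Among genes of at least 2 kb, WT S2P peaks covered 50% or more of the length at 16.7% of all genes, at 30.01% (27.7 to 32.4) of genes with RUNX1 alone, at 28.0% (27.1 to 29.0) of genes with both, at 4.37% (3.65 to 5.19) of genes with GATA2 alone and at 1.74% of genes with neither. The order of RUNX1 alone above GATA2 alone was seen in 3 length classes: 39.9% against 12.5% at 2 to 10 kb, 24.6% against 4.60% at 10 to 30 kb, and 9.14% against 1.73% at 30 to 100 kb. Above 100 kb there were 19 genes with RUNX1 alone and 596 with GATA2 alone, none of them covered, while 5.77% of 1231 genes with both were. Genes with a RUNX1 summit at the start and no GATA2 summit there were covered in 35.1% of 4420 cases, genes with both at the start in 36.4% of 1676, and genes with GATA2 at the start and RUNX1 not at the start in 17.2% of 553. Of 3225 covered genes, 82.6% had RUNX1 within 1 kb of an end and 36.7% had GATA2 there. Local background at RUNX1 peaks was higher at gene ends, as given above, and its part in this was not tested. The classes also differed in peak strength. The strongest peak had a median of 56 fragments at genes with RUNX1 alone and 18 at genes with GATA2 alone. At genes with both, the medians were 68 for RUNX1 and 62 for GATA2. The part of weak GATA2 peaks in the low S2P share of genes with GATA2 alone was not tested.

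The gene lists of blood and housekeeping functions fell into different mixtures of these classes. Among erythroid regulators 22 of 23 genes had both factors and 1 had RUNX1 alone, Mafg, a small MAF protein that pairs with NFE2. Heme synthesis and transport had 13 of 14 with both and 1 with RUNX1 alone, the heme exporter Flvcr1. Among red cell membrane and skeleton genes 19 of 20 had both, and the water channel Aqp1 had neither. The share of both over all genes was 42.7%, and over the 3225 genes of at least 2 kb covered by S2P it was 78.9%. Both were also found at 32 of 39 DNA replication, 23 of 31 proteasome and 54 of 78 ribosomal protein genes. Of genes of at least 2 kb, S2P covered 17 of 23 erythroid regulators, 5 of 14 heme genes and 5 of 19 red cell membrane genes. Strong shared genes of these lists were Cpox, a heme synthesis enzyme, with 197 RUNX1 and 283 GATA2 fragments at the strongest peaks, Glrx5, which acts in iron-sulphur assembly, with 227 and 259, and the spectrin gene Sptb with 187 and 284.

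The 8 globin genes measured divided evenly: 4 had both factors and 4 had GATA2 alone, none RUNX1 alone. The embryonic genes Hbb-bh1, Hbb-y and Hba-x and the adult Hbb-bs were those with GATA2 alone, with 99, 25, 22 and 46 fragments at the strongest GATA2 peak. The adult gene Hbb-bt had 4 RUNX1 and 5 GATA2 peaks, with 78 RUNX1 and 192 GATA2 fragments at the strongest. Globin genes lie close together and have near-identical copies, so reads and peaks of neighbours cannot be fully separated.

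The stem and progenitor, mast cell and megakaryocyte lists had genes with GATA2 alone, a class that held 13.9% of all genes. The class was not particular to them: it also held 4 of 8 globin, 7 of 22 myeloid, 4 of 24 lymphoid and 7 of 24 non-blood genes. It was rare in other lists, with 3 of 78 ribosomal protein genes and no erythroid regulator. Stem and progenitor genes had 14 of 24 with both, 5 with GATA2 alone and 5 with neither. The strongest members had both, among them Hhex with 116 RUNX1 and 269 GATA2 fragments and Erg with 194 and 263. Mast cell genes had 7 of 14 with both, 5 with GATA2 alone and 1, Fcer1g, with RUNX1 alone. The mast cell protease gene Cpa3 had 5 RUNX1 and 15 GATA2 peaks, and all 5 RUNX1 peaks overlapped GATA2. Megakaryocyte genes had 9 of 16 with both, including Pf4 (platelet factor 4) with 168 RUNX1 and 279 GATA2 fragments and Gp9 with 194 and 258, and 4 with GATA2 alone at 10 to 18 fragments.

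Over all genes 42.7% had both factors, 7.36% RUNX1 alone, 13.9% GATA2 alone and 36.1% neither. The lists of other blood lineages and of other tissues held smaller shares with both. Of 22 myeloid genes 5 had both, 2 RUNX1 alone and 7 GATA2 alone, of 24 lymphoid genes 7, 2 and 4, and of 24 genes of non-blood tissues 4, 1 and 7. S2P covered none of 16 myeloid and none of 23 lymphoid genes of at least 2 kb, and 17 of 23 erythroid regulators, beside 16.7% of all genes of that length. Among the shorter myeloid genes S2P covered 87.0% of Cd68 and 79.4% of Cebpb. Cebpe, a granulocyte factor without S2P, still had 225 RUNX1 and 275 GATA2 fragments, and Mbp, named for myelin but also expressed in blood cells from a longer transcript, had 21 RUNX1 and 39 GATA2 peaks with S2P over 70.7% of its length. The genes of the factors' own families and partners had both in 11 of 14 cases for RUNX1 and 12 of 16 for GATA2. Runx3, known from T cells and natural killer cells, and Gata4 and Zfpm2, known from the heart, had GATA2 alone. Their strongest GATA2 peaks were weak, with 13, 20 and 14 fragments, below the median of 23 over all GATA2 peaks.

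The housekeeping lists were the ones with many genes of RUNX1 alone. That class held 7.36% of all genes, 14.1% of the 3225 genes of at least 2 kb covered by S2P, and 13.9% of genes of 2 to 10 kb. Of 78 ribosomal protein genes 54 had both factors, 21 had RUNX1 alone and 3 had GATA2 alone. RUNX1 was within 1 kb of an end at 71 of the 78 and GATA2 at 29, beside 82.6% and 36.7% of the covered genes. Of the 139 RUNX1 peaks at these genes, 15.1% overlapped GATA2, and 80.5% of those at red cell membrane genes did. The lists count a peak once per gene. Of all RUNX1 peaks assigned to genes, each counted once, 48.4% overlapped GATA2. At gene ends 1476 of all 8553 RUNX1 peaks did, so a low share was not particular to ribosomal protein genes. The strongest ribosomal genes with RUNX1 alone were Rps19 with 158 fragments, Rpl23 with 107 and Rpl8 with 106. The proteasome list was alike, with 6 of 31 genes at RUNX1 alone, among them Psma7 with 178 fragments, and 21.4% of 56 RUNX1 peaks overlapped. DNA replication genes had 6 of 39 with RUNX1 alone, namely Mcm4 with 247 fragments, Mcm3 with 141, the sliding clamp Pcna with 126, Mcm5, Pold1 and Rfc5, and 49.1% of their RUNX1 peaks overlapped GATA2. The ribosomal protein genes had a median length of 3.17 kb, and the part of gene length and of S2P cover in these counts was not tested.

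**Figure D5:**
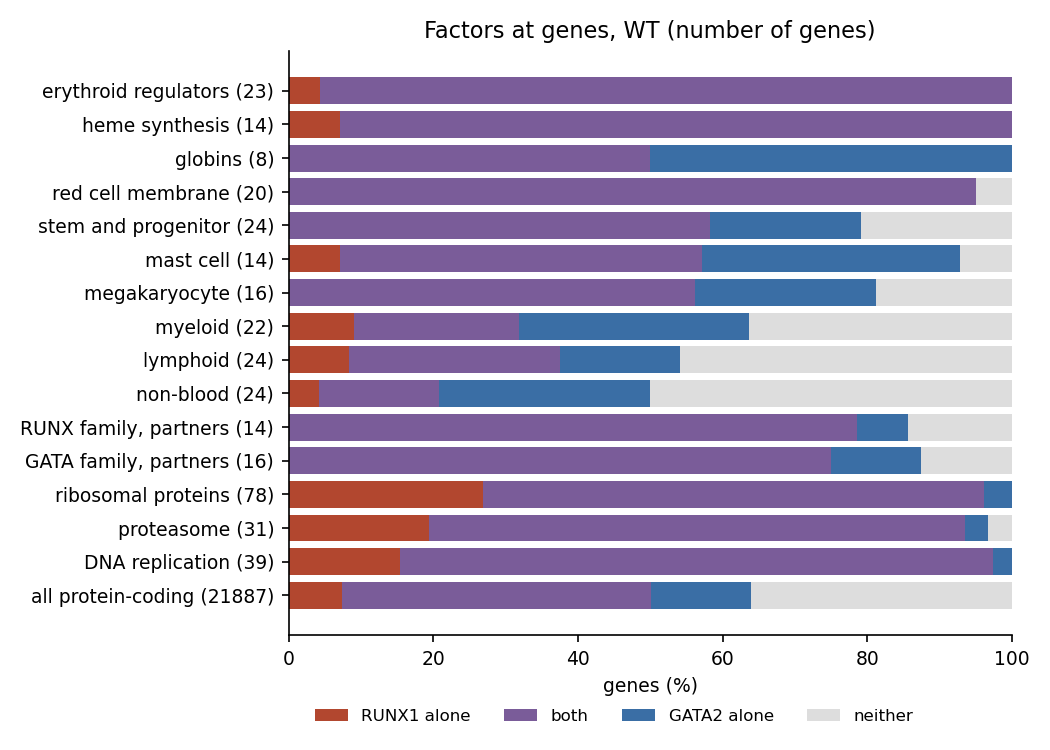
Percentage of the genes of each list, with the number of genes in brackets, that had RUNX1 alone, both factors, GATA2 alone or neither in WT. RUNX1 alone reaches 21 of 78 ribosomal protein genes, and over all 21887 genes it is 7.36%.

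The loci of the factors themselves held both. Runx1, the gene of RUNX1, had 19 RUNX1 and 34 GATA2 peaks, 13 of the RUNX1 peaks shared, and its strongest RUNX1 peak (252 fragments, chr16:92801604-92801974) lay 86.0 kb from its strongest GATA2 peak (283 fragments, chr16:92715505-92716465), so that both were shared sites but not the same one. Gata2 had 8 peaks of each, and the strongest of both lay at 1 site upstream of the gene (chr6:88191697-88192052 for GATA2) with summits at −2008 bp for RUNX1 and −2006 bp for GATA2, and 134 RUNX1 and 271 GATA2 fragments. Tal1, the partner of GATA factors, was of the same kind: the strongest summits lay 257 bp after the start for RUNX1 and 260 bp for GATA2, with 96 RUNX1 and 253 GATA2 fragments. Zfpm1, which encodes the GATA cofactor FOG1, had 16 RUNX1 and 23 GATA2 peaks, 12 of the RUNX1 peaks shared. The Gata1 locus had 4 RUNX1 peaks, all shared, and 5 GATA2 peaks, although the line lacks endogenous GATA1 and carries it only as the fusion.

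Of the other loci chosen as named examples, all but the globin gene Hbb-bs (GATA2 alone, as given above) had both factors. Alas2, the first enzyme of heme synthesis in erythroid cells, had 67 RUNX1 and 249 GATA2 fragments at a single site inside the gene. Nfe2 had 245 RUNX1 fragments at its gene end and 255 GATA2 fragments 6.76 kb away. Kit, the receptor for stem cell factor, had 9 RUNX1 and 16 GATA2 peaks with 94 and 188 fragments at the strongest. Gfi1b, Lmo2, Myb, Myc and Spi1 had 2 to 5 RUNX1 and 3 to 9 GATA2 peaks each. Cbfb, the partner of RUNX1, had 1 RUNX1 peak with 25 fragments and 7 GATA2 peaks. The globin gene Hba-a1 had 30 RUNX1 and 43 GATA2 fragments at 1 site, and no GATA2 peak of it reached a −log10 q of 10.

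Among genes with RUNX1 alone, the 6 with the highest −log10 q had peaks that neighbours shared, although others of this class, such as Mcm4 above, had more fragments. One peak of 245 fragments (chr7:19359312-19360164) lay between Cd3eap, a subunit of RNA polymerase I, and Ppp1r13l, 136 and 105 bp upstream of their starts, and was also counted at Ercc1, a DNA repair gene. Another, of 209 fragments (chr7:141475008-141475608), lay 136 bp upstream of Polr2l, a subunit shared by RNA polymerases, and near Cd151. Pip4k2b shared the Cwc25 peak. The genes of RUNX1 alone with most peaks were Junb (an AP-1 subunit) with 8, Hmga1 and Nab2 with 7 each and Atp5d with 6. By the same measure, and with genes that have a predicted-gene name passed over, the first 6 with GATA2 alone were Spint1 (259 fragments), Cstad (184), Vps53 (177), Neurl1b (131), Sbf2 (129) and Mgat3 (122), and those with most peaks were Cntnap2 with 16, Kdm1a (the histone demethylase LSD1) and Eif2b3 with 11 each and Smoc1 with 10. With only peaks of −log10 q at least 10, Junb, Hmga1, Nab2 and Atp5d held 3, 3, 4 and 6 RUNX1 peaks. Cntnap2, Kdm1a, Eif2b3 and Smoc1 then held 7, 8, 4 and 7 GATA2 peaks, so both orders by peak number depended on the threshold. Cntnap2 spans 2241 kb and Junb 1.84 kb, and the part of gene length in these numbers was not tested.

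The same division was found in the KO lists, which the comparison had not used. In KO, 52.4% of 35281 RUNX1 peaks overlapped GATA2 and 22.5% of 80611 GATA2 peaks overlapped RUNX1, against 53.9% and 22.5% in WT. The strongest of the 10 classes of GATA2 peaks had RUNX1 in 90.8% of cases in KO and 91.7% in WT, and RUNX1 peaks without GATA2 lay at gene ends in 50.6% of cases in KO and 53.0% in WT. The WT classes differed in how often a site was called again in KO. Among WT RUNX1 sites the KO list held 95.8% of those at gene ends without GATA2, 86.2% of those with GATA2 and 77.1% of those away from gene ends without GATA2. Within sites of 15 to 24 WT fragments the same 3 shares were 79.2%, 65.2% and 59.1%. Of the WT RUNX1 sites with GATA2 that were called again, 96.9% again had GATA2 in KO, and of those without GATA2, 90.5% were again without it.

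The letters of the promoters differed more for GATA2 than for RUNX1. AGATAA on either strand was found in 3.54% (3.05 to 4.07) of 5260 promoters with a RUNX1 summit and no GATA2 peak, in 24.0% (20.6 to 27.6) of 601 with a RUNX1 summit in a shared peak, in 45.8% (38.4 to 53.4) of 179 with a GATA2 summit and no RUNX1 peak, and in 9.65% of all 21238 promoters of 300 bases. TGTGGT on either strand was found in 11.8% (10.98 to 12.7), 17.3% (14.4 to 20.6), 16.8% (11.6 to 23.1) and 14.97% of the same sets. Base composition moved with these shares, with a median GC content of 62.7% in the first set, 58.7% in the second, 50.3% in the third and 56.3% over all. Among promoters of 40 to 55% GC, which held 845 of the RUNX1 promoters without GATA2, the shares were 9.23%, 36.2%, 51.8% and 14.5% for AGATAA, and 14.4%, 22.7%, 17.5% and 19.9% for TGTGGT. At 65 to 80% GC, with 2027 of the RUNX1 promoters without GATA2, TGTGGT was found in 9.08% (7.86 to 10.4) of these and in 7.63% of all promoters, so the order against all promoters turned with GC class.

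With TGCGGT counted as well as TGTGGT, forms that differ by 1 base and cannot lie on the same bases, 22.5% of the RUNX1 promoters without GATA2 and 21.6% of all promoters held one. The 2 forms differed: TGCGGT was found in 11.6% (10.7 to 12.5) of the RUNX1 promoters without GATA2 and in 7.43% of all. By GC class the TGCGGT shares were 7.81% against 4.26% at 40 to 55%, 12.0% against 9.91% at 55 to 65%, and 12.4% against 11.5% at 65 to 80%. With TGATAA counted as well as AGATAA, the shares were 5.84% for RUNX1 without GATA2, 35.9% for RUNX1 with GATA2, 57.5% for GATA2 without RUNX1 and 15.9% for all. In promoters with a single AGATAA and a GATA2 summit without RUNX1, the middle of the match lay a median of 30.5 bp from the summit (63 promoters), and 41.3% lay within 25 bp. In promoters with a single TGTGGT and a RUNX1 summit without GATA2 the distance was 85.5 bp (585 promoters), and 16.1% lay within 25 bp. Rab28 was picked for its close match and does not stand for the set. With a GATA2 summit without RUNX1, a single TGTGGT lay a median of 62.5 bp from that summit (27 promoters), 18.5% within 25 bp. With 27 promoters in the GATA2 set, the TGTGGT distances to the 2 factors' summits cannot be ordered. Around RUNX1 summits without GATA2, a single AGATAA lay a median of 127 bp away (182 promoters), with 7.69% (4.27 to 12.6) within 25 bp. The share for TGTGGT around these summits was 16.1% (13.2 to 19.3). Over 4 equal classes of RUNX1 fragments in promoters with a RUNX1 summit and no GATA2 peak, either RUNX form was found in 20.6%, 21.4%, 22.0% and 26.0%, weakest class first. These are matches of letters, and no match says only that the letters are not in the window. Sites away from gene starts, where most shared sites lay, were not searched here.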

How the data were processed

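ChIP-seq peak lists were read as deposited, 1 per factor and genotype, each from 1 library, plus the WT S2P list, which the labels name for both replicates. Chromatin fragments averaged 500 bp and amplified fragments of 150 to 300 bp were selected after 18 PCR cycles, per the labels' protocols. Bowtie2 2.2.1, MACS2 2.1.0 and the mouse build GRCm38 (mm10) are named in the submitters' processing notes, without settings. The authors deposited narrowPeak lists with no header. The deposited score is 10 times the −log10 q as a whole number. The deposited fold is a ratio, fragments at a summit over the background around it. The deposited −log10 p and −log10 q, made from the caller's p-value and q-value, reach down to a q of about 0.05. The depth of the libraries is not given in the sources used here.

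Fragments at the summit and local background were solved from the fold enrichment and −log10 p under the caller's Poisson model, which gave whole numbers for all summits within 0.005. Weak enrichment, the input and the ceiling of 286 fragments limit what the numbers show. Genes were the 21887 protein-coding genes of the RefSeq table for GRCm38.p6, and gene starts came from the RefSeq promoter table, which covers 17492 of them and none on chromosome 18. Positions are 1-based. The planned gene end was kept, with start and far end told apart where the strand was known. The 15 gene lists have 369 entries, 367 of which matched a gene, and the members and lists were chosen with earlier results of these data known. Named sites and genes were the strongest per class, those with most peaks, a fixed set of 16 loci, and the strongest or rarest-class members of each list. Housekeeping genes with RUNX1 alone, Mbp and Cebpe, TGCGGT and TGATAA, and the promoters of Rab28 and Tfr2 were chosen after values were seen. Python 3.11.15 with numpy 2.4.6, pandas 2.3.3 and scipy 1.17.1 was used, and the overlap, distance and fragment steps were tested on simulated data. No test between factors was run, with 1 library each. Alternatives changed the overlap rule, the threshold, the gene window and the gene-end distance.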

Additional observations from a re-analysis of the deposited data

How the results depend on the processing

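Of 36 alternative values for the main results, 11 stayed within the counting interval (1.5 times for gene counts) and 25 moved. With an overlap of 50% of the shorter peak, 52.4% of RUNX1 and 21.8% of GATA2 peaks were shared, and 58.4% of genes with both held a shared site. With summits within 100 bp, the same values were 47.6%, 20.2% and 55.04%. With only peaks of −log10 q at least 10 (19236 RUNX1, 36916 GATA2), 27.7% of GATA2 peaks were shared, 32.6% of RUNX1 and 7.41% of GATA2 summits lay at gene ends, summits lay 17.5 bp apart, and median widths were 305 bp for RUNX1 and 295 bp for GATA2. With the GATA2 list kept to its 28952 strongest peaks, 46.4% of RUNX1 and 45.3% of GATA2 peaks were shared, 3611 genes had RUNX1 alone and 1013 GATA2 alone, 68.9% of genes with both held a shared site, 7.63% of GATA2 summits lay at gene ends, summits lay 19 bp apart and the GATA2 width was 314 bp. Fewer GATA2 peaks then enter by construction. This setting turned 2 orders: GATA2 alone became rarer than RUNX1 alone, and GATA2 peaks wider than RUNX1 peaks. With summits inside genes, 5718 genes had both. With gene ends within 500 bp the shares were 24.4% for RUNX1 and 3.14% for GATA2, and within 2 kb 36.0% and 12.2%. Of 36 named genes, 1, Hba-a1, changed class under each of the threshold settings, to RUNX1 alone. The cause of other moves was not tested. No paired analysis was possible because each factor had 1 library. Few fragments limit the GATA2 sites without RUNX1, where the median was 19.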

Other observations

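The gene-end difference between the factors was seen on each of the 20 chromosomes compared (Y left out). The gene-end share of RUNX1 summits lay between 23.2% on chromosome 18 and 36.1% on chromosome 17, and that of GATA2 summits between 4.58% and 10.4% on the same chromosomes. The overlap of RUNX1 peaks with GATA2 lay between 46.2% on chromosome 17 and 60.4% on chromosome 13, and that of GATA2 peaks with RUNX1 between 19.7% on chromosome 1 and 26.0% on chromosome 19. The lowest RUNX1 value of each measure was above the highest GATA2 value. For the overlap this order came with the longer GATA2 list. These chromosomes held 1.74 to 2.97 GATA2 peaks per RUNX1 peak, so the overlap shares give no separate check of a difference between the factors.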
